A study of Mus musculus with 6 samples.

Results

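The galectins are a family of soluble proteins that bind β-galactoside sugars, and 8 mouse members were followed here: Lgals1, Lgals2, Lgals3, Lgals4, Lgals7, Lgals8, Lgals9 and Lgals12. They were found by matching the RefSeq accession in each probe set's name to the gene, which left 1 probe set per galectin. All 8 listed genes were found, among 909 named genes and 1246 probe sets. The RNA came from MLE-15, a line of mouse lung epithelial cells derived from lung tumours of mice that carry the SV40 large T antigen under a surfactant protein C promoter. All 6 samples are this line, so both groups share the transgene. The 3 control samples carry no PMA, and the 3 PMA samples received PMA, a phorbol ester used to switch on protein kinase C, with 10 nM and 24 h named in the design text of the series. Each group holds replicate numbers 1, 2 and 3. In both groups the sample titles give numbers 2 and 3 the letters A and B, and number 1 no letter. What the letters stand for is not stated. Whether the replicates are separate cultures is not stated. The p-values therefore reflect the spread of these arrays alone, which may be technical. The study asked about sialyltransferases, sulfotransferases and mucins, whose products include sugars that galectins bind or fail to bind.

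Galectins are made in the cytosol and leave the cell without a signal peptide. Outside the cell they cross-link glycoproteins that carry N-acetyllactosamine, and so bear on adhesion, receptor turnover and immune signalling. Prototype galectins (Lgals1, Lgals2, Lgals7) have a carbohydrate recognition domain that pairs with that of another molecule, the chimera galectin Lgals3 joins such a domain to a flexible tail that allows it to form oligomers, and tandem-repeat galectins (Lgals4, Lgals8, Lgals9, Lgals12) hold a pair of different domains on the same chain. Branched N-glycans with poly-N-acetyllactosamine favour binding by several galectins, and α2,6-linked sialic acid on galactose blocks that of Lgals1.

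Promoter sequences are shown for Lgals3 and Lgals4, which differed in opposite directions between arrays, and for Lgals7, the gene next to Lgals4 on chromosome 7 with 0 annotated genes between them. They are the 250 bases before the annotated start site in RefSeq on build GRCm38.p6, at chr14:47373610-47373859 (plus strand), chr7:28833544-28833793 (plus strand) and chr7:28864136-28864385 (plus strand). Windows were held for 6 of the 8 galectins, all but Lgals1 and Lgals12. Capitals mark matches, on either strand, to the CCAAT box (CCAAT) or the GC box (GGGCGG).
Lgals3: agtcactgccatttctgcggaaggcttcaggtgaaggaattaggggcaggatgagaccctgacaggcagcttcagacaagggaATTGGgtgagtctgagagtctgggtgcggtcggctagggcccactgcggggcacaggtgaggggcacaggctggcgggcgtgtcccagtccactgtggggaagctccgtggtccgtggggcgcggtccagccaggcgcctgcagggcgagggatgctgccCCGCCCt
Lgals4: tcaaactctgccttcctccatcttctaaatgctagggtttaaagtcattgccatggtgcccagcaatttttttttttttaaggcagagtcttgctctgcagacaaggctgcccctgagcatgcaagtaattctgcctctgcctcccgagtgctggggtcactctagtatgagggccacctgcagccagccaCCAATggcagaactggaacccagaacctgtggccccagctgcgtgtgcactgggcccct
Lgals7: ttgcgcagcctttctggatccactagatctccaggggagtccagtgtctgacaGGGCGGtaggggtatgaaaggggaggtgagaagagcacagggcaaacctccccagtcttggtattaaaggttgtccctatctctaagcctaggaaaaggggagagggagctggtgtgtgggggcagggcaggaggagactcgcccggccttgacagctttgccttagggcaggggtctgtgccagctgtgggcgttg
The CCAAT box was matched at position -167 in Lgals3 and -59 in Lgals4, counted to the first base of the match from a start site at 0. The GC box was matched at -7 in Lgals3 and at -197 in Lgals7. Over all 32851 RefSeq windows of this length, 33.8% held a CCAAT box and 32.7% a GC box. The AP-1 motif, through which phorbol esters act on many genes, was searched in a loose form (TGANTCA, with N any base). That form was in 0 of the 6 galectin windows and in 6.75% of all windows. The TATA box (TATAAA) was in 0 of the 6 and in 12.4% of all. These letters describe the windows only.

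Values are RMA expression values on the log2 scale, so a difference of 1 is a doubling of the measured signal. Array medians lay between 5.64 and 5.71. Probe sets named with the suffix s, which can bind several transcripts, stood for 5 of the 8 galectins: Lgals1, Lgals3, Lgals4, Lgals7 and Lgals9. The level of one probe set does not rank against that of another, so each galectin is compared only with itself. The control and PMA arrays numbered 1 both lay apart from numbers 2 and 3. Every galectin is therefore given array by array and compared within numbers. The label of a lung epithelial line could be checked on only 2 of 19 listed epithelial markers. Surfactant protein D (Sftpd) had means of 5.42 in control and 5.38 in PMA arrays. Surfactant protein A (Sftpa1), at 3.53 and 3.49, was below the lower quartile of each array.

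Among the prototype galectins, Lgals1, which binds N-acetyllactosamine on many cell surface and matrix glycoproteins, read 12.85, 11.21 and 11.22 in control arrays 1, 2 and 3, and 12.87, 11.14 and 11.14 in PMA arrays 1, 2 and 3. Both number 1 arrays were high, the other 4 lay close together, and control and PMA overlapped. The group means were 11.76 ± 0.94 (SD, n = 3) in control and 11.72 ± 1.00 (SD, n = 3) in PMA, a difference of -0.045 log2 units (SE 0.68). Lgals2, a galectin best known from the gut, read 6.18, 5.66 and 5.73 in control and 5.83, 5.62 and 5.88 in PMA. Control 1 was the highest and the groups overlapped, with a difference of -0.079 (SE 0.16). Lgals7, a galectin of stratified epithelia, read 6.95, 6.96 and 6.97 in control and 6.91, 6.99 and 6.98 in PMA. Its 6 values spanned 0.076 log2 units, the narrowest range of the family, and PMA differed from control by 0.0033 (SE 0.055). RefSeq also lists a pseudogene, Lgals1-ps1, whose transcripts the Lgals1 probe set might bind.

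The chimera galectin Lgals3, which is found in the cytosol, the nucleus and outside epithelial cells and macrophages, read 11.60, 10.67 and 10.69 in control and 11.58, 10.37 and 10.65 in PMA. The number 1 arrays were again the high ones, and PMA 2 was the lowest of the 6. The means were 10.98 ± 0.53 (SD, n = 3) and 10.87 ± 0.64 (SD, n = 3), a difference of -0.12 (SE 0.41), and PMA lay below control in all 3 numbers.

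Among the tandem-repeat galectins, Lgals4, an epithelial galectin that binds sulfated glycolipids in lipid rafts, read 7.15, 10.19 and 10.22 in control and 6.88, 10.14 and 10.13 in PMA. Here the number 1 arrays were low by about the same amount in both groups, and control and PMA overlapped. The means were 9.19 ± 1.76 (SD, n = 3) and 9.05 ± 1.88 (SD, n = 3), a difference of -0.13 (SE 1.27), with PMA below control in all 3 numbers. Some mouse strains carry Lgals6, a close copy of Lgals4 that is not in the gene table used here, and the probe set of Lgals4 has the suffix s.

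Lgals8, which marks damaged endosomes from the cytosol, read 7.94, 7.90 and 8.10 in control and 7.91, 7.90 and 8.05 in PMA. It was highest in number 3 of each group, and PMA differed by -0.025 (SE 0.083). Lgals9, known as a ligand of the T-cell receptor Tim-3, read 8.83, 8.26 and 8.37 in control and 8.68, 8.52 and 8.28 in PMA. Both number 1 arrays were the highest, and the difference with PMA was 0.0065 (SE 0.19). Lgals12, a galectin of fat cells, read 3.95, 3.67 and 3.71 in control and 3.93, 3.79 and 3.75 in PMA, a difference of 0.046 (SE 0.10). These 6 values were below the lower quartile of their arrays (4.32 to 4.43), so Lgals12 was near the dim end of the table.

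**Figure D1:**
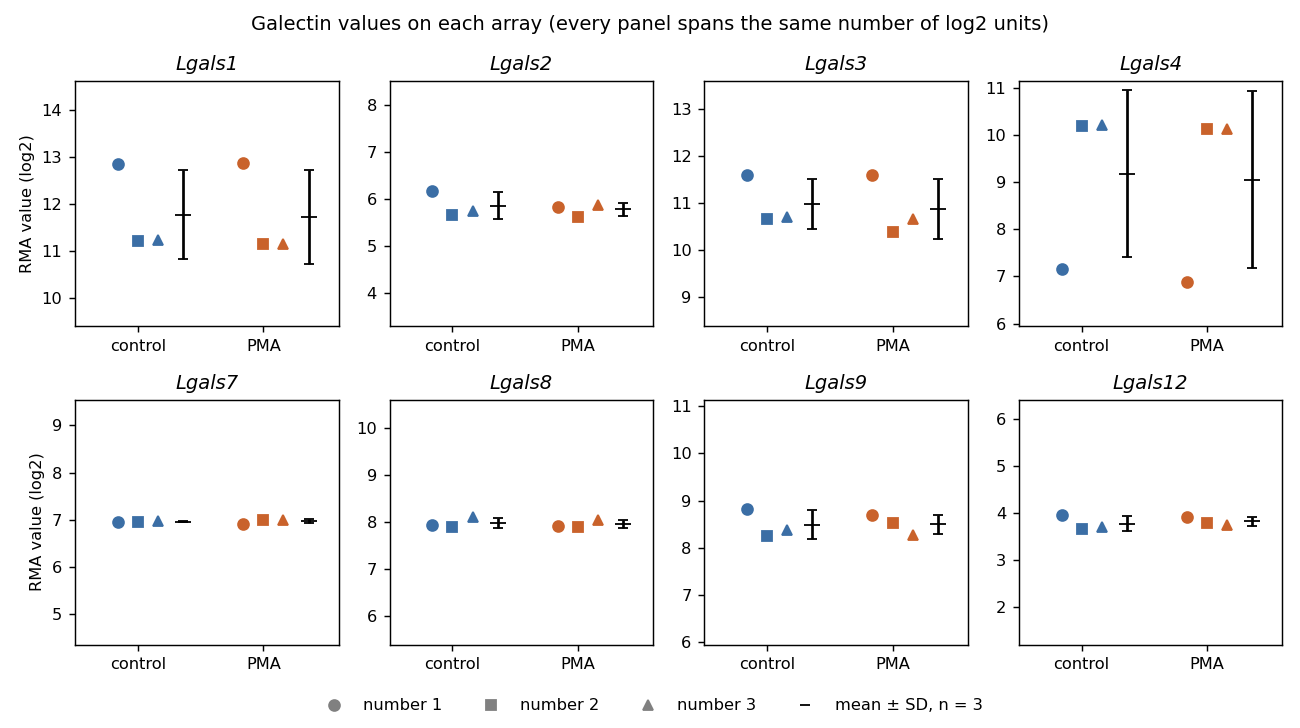
RMA values (log2) of each galectin on the 6 arrays, with control in blue and PMA in orange, symbols for replicate numbers 1, 2 and 3, and the mean ± SD (n = 3) in black. The circles of number 1 stand above the rest in Lgals1 and Lgals3 and 8.90-fold below the rest in Lgals4, while control and PMA sit at like heights in each panel.

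No galectin passed the test for a change with PMA. The PMA mean was above that of control in 3 of the 8 and below it in 5, and 0 passed by limma with Benjamini-Hochberg adjustment over all 1246 probe sets, against 0% called (0 probe sets) over the table. The adjusted p was 0.999 for each galectin, and 0 had an unadjusted p under 0.05, a level met by 4 probe sets in all. The blocked fit, which compares PMA with control inside each replicate number, also called 0, and 0 of the 8 and 42 of all probe sets then met that level. The median difference was -0.035 log2 units over the galectins and 0.0033 over all probe sets, and the median absolute difference was 0.045 against 0.050.

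Within numbers the differences were small and mixed. Those of Lgals2 were -0.35, -0.035 and 0.15 in numbers 1, 2 and 3, and those of Lgals9 were -0.15, 0.26 and -0.091, so each changed sign between numbers. Lgals3 gave -0.013, -0.30 and -0.039, Lgals4 gave -0.27, -0.050 and -0.083, and Lgals8 gave -0.023, -0.0033 and -0.048. These 3 galectins kept 1 sign in all 3 numbers, as did 23.1% of all probe sets. In 0 of the 8 did control and PMA arrays fail to overlap, against 3.37% of all probe sets. The 95% interval of the difference in the blocked fit was widest for Lgals2 (-0.29 to 0.13), and for Lgals4 it ran from -0.30 to 0.028. All 8 of these intervals lay within 0.5 log2 units of 0, as did 1234 of 1246 over the table. Without the block the spread between numbers enters the error, and the interval of Lgals4 then ran from -3.31 to 3.05, with 5 of the 8 within 1 log2 unit. The galectins Lgals1 and Lgals3 were the other ones outside, at -1.74 to 1.65 and -1.15 to 0.91.

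**Figure D2:**
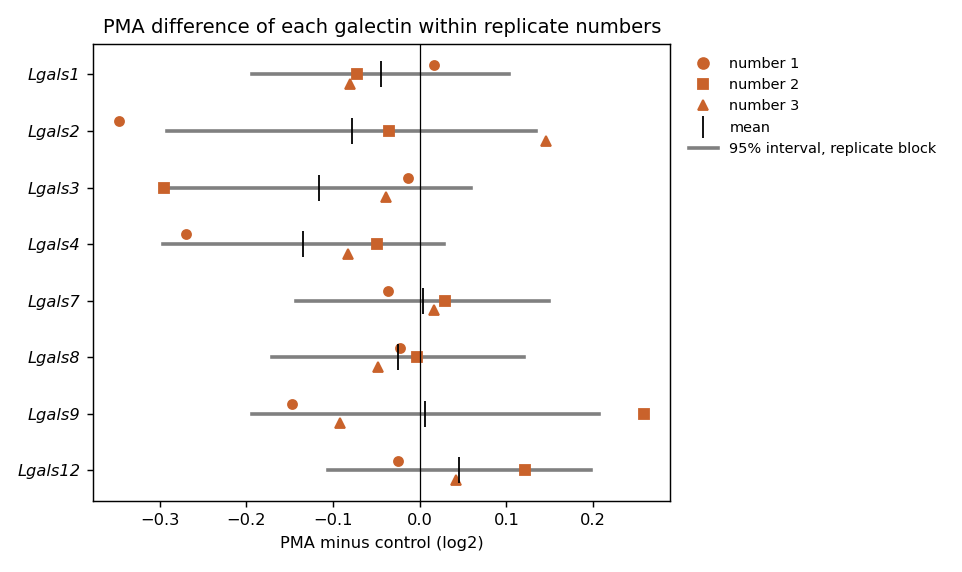
PMA minus control (log2) for each galectin, with a symbol for the difference within each replicate number, a tick for the mean and a grey bar for the 95% interval of the fit with the replicate block. Each grey bar crosses 0, and the widest symbol spread is that of Lgals2, from -0.35 to 0.15.

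Lgals1, Lgals3 and Lgals4 differed far more between the number 1 arrays and the other arrays than between treatments. Lgals7 and Lgals8 differed little in either comparison. In a fit with PMA as a term, 4 of the 8 galectins were higher in number 1 and 1 was lower by limma with Benjamini-Hochberg adjustment. Over all probe sets 41.7% were called in this comparison, 27.5% higher and 14.1% lower, so a call here is common. When the values were quantile-normalized again, the calls over the table turned from 343 higher and 176 lower to 278 and 232, and those of the galectins to 3 and 1. Number 1 stands for 2 arrays against 4, and these p-values say nothing beyond these 6 arrays.

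Lgals4 was the galectin that differed most. It averaged 7.02 in the 2 number 1 arrays and 10.17 ± 0.040 (SD, n = 4) in the other arrays, a difference of -3.15 log2 units (SE 0.072, adjusted p = 6.72e-10 by limma) and 8.90-fold lower signal. The difference was -3.05 in control and -3.26 in PMA arrays, and only 3 of the 1246 probe sets lay lower, which made it 4 from the bottom. In RNA from whole cultures, fewer cells that carry a transcript and less of it per cell cannot be told apart. What sets the number 1 arrays apart is not stated, so neither can be told from a technical difference. The neighbouring Lgals7 stood at 6.93 and 6.97, a difference of -0.044 (SE 0.065, adjusted p = 0.624), with a sign that turned when the values were quantile-normalized again (0.030).

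Lgals1 and Lgals3 differed the other way. Lgals1 averaged 12.86 in number 1 and 11.18 ± 0.044 (SD, n = 4) in the other arrays, 1.68 log2 units higher (SE 0.066, adjusted p = 1.06e-08 by limma) or 3.21-fold. Lgals3 averaged 11.59 and 10.59 ± 0.15 (SD, n = 4), 1.00 higher (SE 0.088, adjusted p = 5.77e-06 by limma) or 2.00-fold. Their ranks from the top of the table were 24 and 60. For Lgals1, Lgals3 and Lgals4 the number 1 arrays did not overlap the others, and each was called under all 17 alternatives tried for this comparison.

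The other called galectins differed by less. Lgals9 averaged 8.76 and 8.35 ± 0.12 (SD, n = 4), 0.40 higher in number 1 (SE 0.090, adjusted p = 0.00414 by limma). Without control 1 its difference was 0.29 with an adjusted p of 0.116, so this call needed that array. After a further quantile normalization it was 0.25 (adjusted p = 0.0298). Lgals12 averaged 3.94 and 3.73 ± 0.052 (SD, n = 4), 0.21 higher (SE 0.067, adjusted p = 0.0314 by limma). It was called in only 6 of 16 alternatives, and not under either other scaling of the arrays (adjusted p = 0.191 after quantile normalization and 0.0875 after median centring). Its call was also lost without control 1, 2 or 3 and without PMA 1 or 3, at adjusted p = 0.246, 0.0731, 0.0739, 0.0598 and 0.0660, and its difference then ran from 0.15 to 0.26. Lgals2, at 6.002 against 5.72 ± 0.11 (SD, n = 4), differed by 0.28 (SE 0.10, adjusted p = 0.0543) and missed the threshold. It was called in 6 of 17 alternatives. Its difference was 0.48 in control arrays alone (adjusted p = 0.000875) and 0.079 in PMA arrays alone (adjusted p = 0.703). Without PMA 1 it was 0.48 and without PMA 3 0.36, both called, and without control 1 it was 0.079. Lgals8, at 7.93 against 7.99 ± 0.10 (SD, n = 4), differed by -0.060 (SE 0.081, adjusted p = 0.587), and by -0.19 (adjusted p = 0.0511) after a further quantile normalization.

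**Figure D3:**
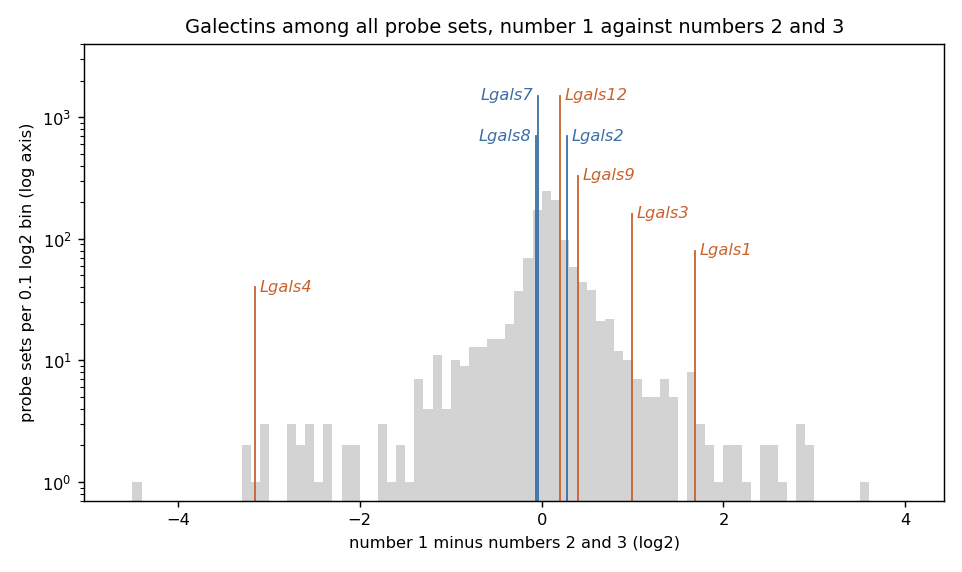
Number 1 minus numbers 2 and 3 (log2) for all 1246 probe sets in grey bins of 0.1 on a log axis of counts, with a line for each galectin, orange where called by limma and blue where not. The line of Lgals4 lies near the left end at -3.15 and that of Lgals1 in the right tail at 1.68, while Lgals7 and Lgals8 lie in the peak. The height of a line carries no value.

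The number 1 arrays did not overlap the other 4 in 6 of the 8 galectins, against 55.9% of all probe sets. Lgals7 was among the 6, though its difference was only -0.044 and was not called. By prototype, chimera and tandem-repeat type, the called galectins were 1 of 3, 1 of 1 and 3 of 4, against 41.7% of all probe sets. Of the tandem-repeat calls, Lgals4 was lower. Lgals9 and Lgals12 were higher, and their calls were lost under some alternatives. The median difference of the family was 0.24 log2 units and its median absolute difference 0.34, against 0.079 and 0.17 over all probe sets. Of the variance over the 6 arrays, the split into number 1 and the rest held 99.8% in Lgals1, 99.7% in Lgals4 and 95.2% in Lgals3. It held 13.0% in Lgals8, with a median of 83.6% over the family and 60.01% over all probe sets. PMA held 0.080%, 0.20% and 1.44% in the first 3, with a median of 0.93% over the family and 3.67% over all probe sets.

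Whether the PMA difference itself depended on the number was tested as a product term. It was called in 0 of the 8 galectins by limma, against 0.0803% of all probe sets (1, the unnamed uc009kma.1_psr1_at, at 1.21 log2 units). No galectin had an unadjusted p under 0.05, against 70 over the table. The largest was that of Lgals2, where PMA gave -0.35 in number 1 and 0.055 in numbers 2 and 3, a product of -0.40 (SE 0.17, adjusted p = 0.743). For Lgals4 the values were -0.27 and -0.066, a product of -0.20 (SE 0.12, adjusted p = 0.778). Numbers 2 and 3 differed from each other in 0 of the 8 galectins by limma, with 0% called over the table, and 0 of the 8 and 61 of all had an unadjusted p under 0.05. The largest of these differences were -0.18 in Lgals8 (SE 0.078, adjusted p = 0.953) and -0.16 in Lgals2. Lgals3 was next at -0.15 (SE 0.094), but it was -0.28 without control 2 and -0.015 without PMA 2, and -0.076 after a further quantile normalization. Lgals1, Lgals4, Lgals7 and Lgals12 differed by less than 0.01 in size.

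The galectin-related gene Lgalsl, whose product keeps the galectin fold but is not known to bind lactose, was also on the array. It read 7.43, 7.11 and 7.08 in control and 7.44, 7.02 and 7.25 in PMA. PMA differed by 0.034 (SE 0.15), and number 1 was higher by 0.32 (SE 0.079, adjusted p = 0.00719 by limma), a size between those of Lgals12 and Lgals9.

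The named genes nearest to each galectin were sought for the 3 whose range passed 1 log2 unit, by the root mean square difference of values centred on the gene's mean over the 6 arrays. Nearest to Lgals4 were Wnt5a, a secreted Wnt ligand, at 0.13 log2 units (r = 0.996), the chemokine receptor Ccr7 at 0.17 (r = 0.994), and the chemokine Ccl20 at 0.19 (r = 0.992). Wnt5a averaged 5.69 in number 1 and 8.90 in the other arrays, and Ccr7 5.07 and 8.29. Nearest to Lgals1 were Csf1, the macrophage growth factor, at 0.11 (r = 0.990), the N-acetylglucosamine 6-O-sulfotransferase Chst2 at 0.12 (r = 0.995) and the uronyl 2-O-sulfotransferase Ust at 0.12 (r = 0.989). Nearest to Lgals3 were the O-glycan initiating enzyme Galnt12 at 0.083 (r = 0.994), the dehydrogenase Dhrs1 at 0.091 (r = 0.986) and Bmp8a at 0.11 (r = 0.974). Each r is over 6 arrays that share the split into number 1 and the rest, so it describes that split.

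**Figure D4:**
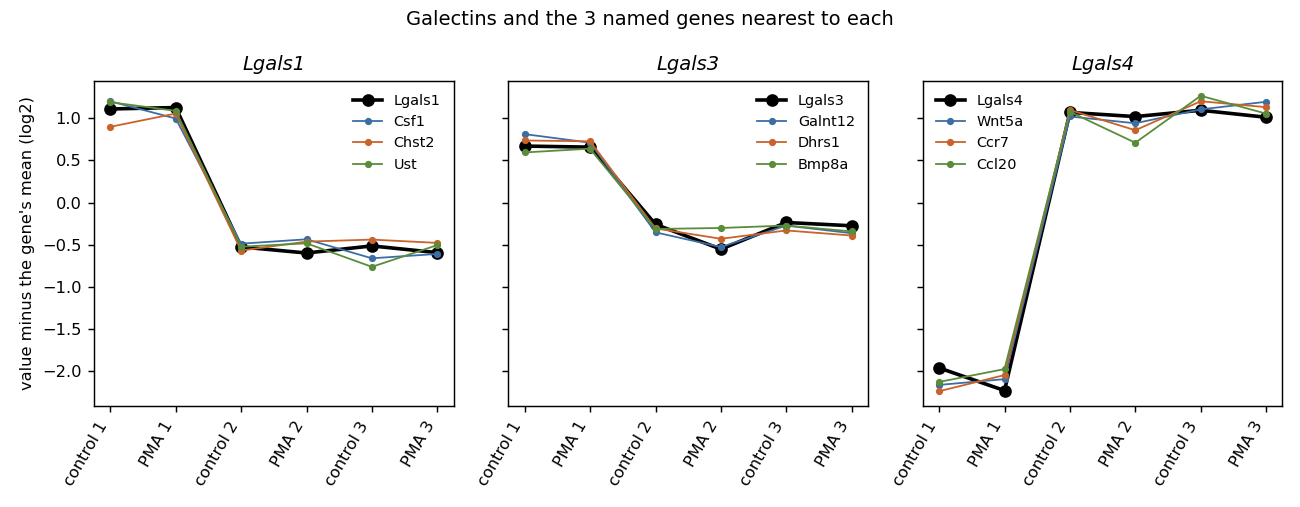
Values minus the gene's mean (log2) of Lgals1, Lgals3 and Lgals4 in black and the 3 named genes nearest to each in colour, over the 6 arrays in order of replicate number. Every line steps between number 1 and numbers 2 and 3, down in the left and middle panels and up in the panel of Lgals4, where the step is the tallest of the 3.

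Among the genes that build, cap or carry galectin ligands, none passed the test for PMA. Of the 26 listed enzymes of N-glycan branching, core extension and poly-N-acetyllactosamine, 25 were measured, 12 higher and 13 lower with PMA at a median of -0.00076 log2 units. All 4 measured sialic acid caps were higher in mean (median 0.074, 4 of 5 listed), and of the 12 measured galectin-binding glycoproteins (of 30 listed) 9 were higher and 3 lower (median 0.12). By limma 0 of these genes passed and 0 had an unadjusted p under 0.05. The blocked fit also called 0, and 1, 0 and 2 genes of these lists met that level, as did 42 of 1246 probe sets over the table. The largest differences were 0.27 for the lysosomal membrane protein Lamp2 (SE 0.18) and 0.23 for the hyaluronan receptor Cd44 (SE 0.12). A second Lamp2 probe set, with a lower mean, differed by 0.0054 (SE 0.13).

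Between number 1 and the other arrays the ligand genes differed in both directions. Of the 25 enzymes, 7 were called higher and 7 lower by limma, against 27.5% and 14.1% of all probe sets, so the share called higher is close to that of the table. The median difference was -0.068, against 0.079 over all probe sets. Higher in number 1 were B3gnt7, which extends sulfated poly-N-acetyllactosamine, at 1.99 log2 units (SE 0.073), the galactosyltransferases B4galt5 at 1.38 and B4galt1 at 1.36, B4galt2 at 0.49, the mannosidase Man2a2 at 0.48 and the bisecting enzyme Mgat3 at 0.44. Lower were B3gnt3, which extends core 1 O-glycans, at -1.40 (SE 0.11), the core 2 enzyme Gcnt3 at -1.33, the poly-N-acetyllactosamine synthase B3gnt2 at -1.02, B3gnt5 at -0.97, Gcnt1 at -0.92 and Gcnt2 at -0.64. Mgat5, which makes the branch most often tied to galectin binding, read 6.40 and 6.29 and was not called.

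Of the 4 caps, 2 were called, both higher: St6gal1, the α2,6-sialyltransferase of N-glycans, at 2.22 (SE 0.11), and St3gal3 at 0.84. Of the 12 glycoproteins, 3 were higher, Lamp2 at 0.36, the membrane mucin Muc1 at 0.33 and the adhesion molecule Mcam at 0.31. The second Lamp2 probe set gave 0.23 and was not called (adjusted p = 0.0618 by limma). For Tgfbr2, a TGF-β receptor that was not called, the second probe set was called lower, at -0.72 (SE 0.10) and is not counted here. On the probe sets used, 2 of the 12 were lower, the secreted mucin Muc5ac at -2.59 (SE 0.17) and the adhesion molecule Vcam1 at -1.31. Lgals1 and St6gal1 were both higher in number 1, while Lgals4 and Muc5ac were both lower, in arrays where 41.7% of probe sets were called. Other ligand genes went in either direction, and a link between any of them and a galectin was not tested.

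**Figure D5:**
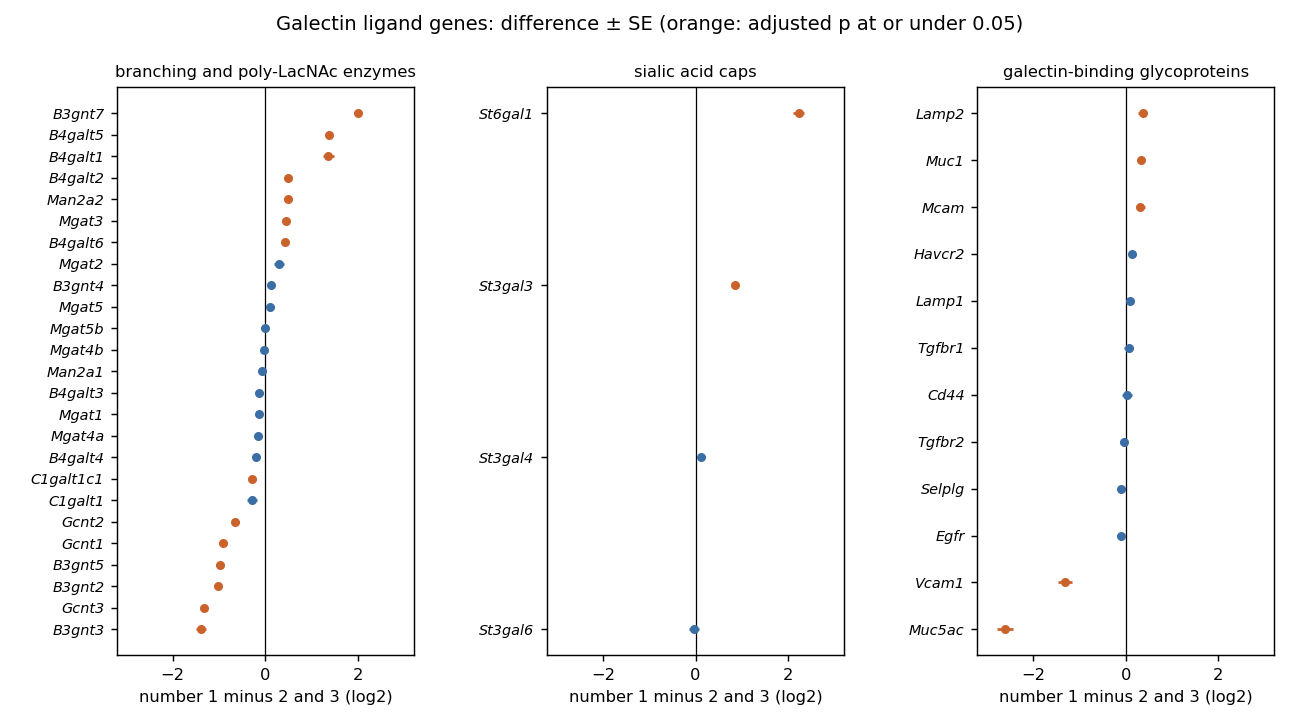
Number 1 minus numbers 2 and 3 (log2) with its SE for the galectin ligand genes, in 3 panels for enzymes, sialic acid caps and galectin-binding glycoproteins, orange where called by limma and blue where not. The enzymes run from -1.40 (B3gnt3) to 1.99 (B3gnt7), and St6gal1 and Muc5ac stand at the ends of their panels.

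Some markers of other cells also differed between number 1 and the rest, where 41.7% of all probe sets were called. Of 9 measured endothelial and fibroblast markers (18 listed), 4 were lower in number 1 and 2 higher by limma, with a median difference of 0.061. Their mean level was 5.59 to 5.68 in the number 1 arrays and 6.08 to 6.25 in the others, and the matrix proteoglycan Dcn differed by -2.31, the endothelial Pecam1 by -1.37, Vcam1 by -1.31 and Sele by -1.13. The called markers that were higher were the fibroblast receptor Pdgfrb at 0.78 and the endothelial Selp at 0.39. Of 12 measured leukocyte markers (27 listed), Mrc1 was lower at -2.74, Cd83 higher at 0.52 and the other 10 not called, for a median of 0.035 and mean levels of 4.77 to 4.91 and 4.98 to 5.04. Of these markers, 2 of the 9 and 4 of the 12 were below the lower quartile of all 6 arrays. Of the 2 lung epithelial markers, Sftpa1 was higher in number 1 at 0.52 but was also below the lower quartile of all 6 arrays. The mean level of the pair was 4.65 to 4.70 against 4.29 to 4.44. None of the 7 keratinocyte and 5 adipocyte markers listed was measured. The part of other cells in the galectin differences was not tested.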

How the data were processed

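Expression was measured on 6 Affymetrix arrays, 3 control and 3 PMA. Per the labels' protocols, biotinylated cRNA was made from total RNA extracted with Trizol. The deposited log2 values were made by the authors with RMA (background correction, quantile normalization, probe summary), per the submitters' processing notes. The array design, the RMA version and any filter are not stated in these sources. Quantile normalization, done before the probe summary, makes the arrays alike in distribution and would hide a change shared by most transcripts. The deposited values were not fully alike, with array medians of 5.64 to 5.71. Values were used as deposited.

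The 1246 probe sets were named through RefSeq accessions (assembly GRCm38.p6), which gave names to 963 of them and covered 909 genes. The probe set with the highest mean stood for a gene. No coordinates are given for probe sets, since no build is named for the array. Comparisons used limma 3.58.1 in R 4.3.3 (lmFit, eBayes) on all probe sets, with Benjamini-Hochberg adjustment and a threshold of 0.05. SE is limma's moderated error. The tests were tried on simulated data first. PMA was compared with control without a block, and number 1 with numbers 2 and 3 with PMA as a term. Precision is limited by having 6 arrays.

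The pairing of replicate numbers was checked by correlating, over probe sets, deviations from the group mean. Same-numbered arrays gave 0.956, 0.815 and 0.912, all over 0.1, so a blocked fit was run too. With number 1 set aside the correlation was 0.0412, so the pairing rests on number 1.

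All 8 galectins are described. Nearest genes were the 3 with the smallest root mean square difference for galectins whose range passed 1 log2 unit. Ligand genes named are the 6 largest calls in each direction and the 2 largest PMA differences. Mgat5 was added after its values were seen. Members and lists were chosen with earlier results of these data known. Alternatives covered scaling, filtering, the variance prior, probe set choice, the block and each array left out.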

Additional observations from a re-analysis of the deposited data

How the results depend on the processing

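The count of galectins called for PMA was 0 under every alternative run, including the replicate block, a term for number 1 and number 1 left out of both groups. As no PMA difference was called, its sign carries little: it turned for Lgals1 (0.036) after a further quantile normalization, for Lgals7 (-0.0091) and Lgals9 (-0.0058) after median centring and for Lgals2 (0.055) without number 1 in either group. With each array left out in turn, which unbalances the numbers, the PMA difference ran from -0.62 to 0.50 in Lgals1, -0.18 to 0.081 in Lgals2, -0.47 to 0.19 in Lgals3, -1.15 to 0.95 in Lgals4, -0.010 to 0.028 in Lgals7, -0.073 to 0.035 in Lgals8, -0.11 to 0.18 in Lgals9 and -0.0082 to 0.13 in Lgals12. The product with number 1 gives no value when a number 1 array is left out.

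Control arrays alone and PMA arrays alone each hold a single number 1 array, so the calls of those fits carry little. For number 1 against numbers 2 and 3 in all arrays, the count of called galectins was 5. It was 3 to 5 with each array left out, 4 after either scaling, against number 3 only or with the filter on low values (which removed Lgals12), 5 without a PMA term or against number 2 only, and 6, with Lgals2 called as well, with the replicate block or with the trend and robust prior. A count of 5 did not always hold the same galectins. Against number 2 only, Lgals2 was called (adjusted p = 0.0349 by limma) and Lgals12 was not (adjusted p = 0.0793 by limma). The same change came without PMA 3. Lgals7 turned to 0.030 after a further quantile normalization and Lgals8 to 0.027 against number 2 only, neither of them called. The comparison of numbers 2 and 3 and the product term called 0 galectins in every alternative. No background probe sets were in the table, so how far the dim Lgals12 stands above background is unknown.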
